A study of Mus musculus with 12 samples.

Results

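The retinal guanylate cyclases and the calcium sensors around them were followed in cones sorted from degenerating mouse retinas. The group was fixed by name and holds 6 genes: the cyclases Gucy2e and Gucy2f, the cyclase-activating proteins Guca1a and Guca1b, the cyclase inhibitor Rd3 and the calcium sensor Rcvrn. A gene was read from the brightest probe that names it alone, and 5 of the 6 genes had such a probe among 19902 genes measured. Guca1b is not analysed here. Its chromosomal neighbour Guca1a was read by probe 10451551, Gucy2e by 10387274, Gucy2f by 10607064, Rcvrn by 10377235 and Rd3 by 10352781, the only such probe of each gene.

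The 12 arrays came from C3H/HeNCrl mice, which carry the rd1 allele of Pde6b, so that all groups share the mutation and no group has an intact retina. An adeno-associated virus was injected under the retina at postnatal day 21 to 28. It carried a fluorescent protein behind mCAR, the promoter of mouse cone arrestin, and the cells were sorted by fluorescence, so each sort holds cells in which that promoter still drove the reporter. EGFP was the reporter of the control groups, from mice aged 110 days (4 arrays) or 220 days (4 arrays), and 500 cells went into each array. The remaining 4 arrays were made from 300 cells each of mice aged 165 days that expressed eNpHR-EYFP, in which a chloride pump of archaea that light drives is joined to a yellow fluorescent protein. Construct, age and number of cells therefore cannot be told apart between the eNpHR-EYFP arrays and either EGFP group. The labels call the arrays biological replicates without saying whether they came from separate animals, so p-values measure the spread between these arrays.

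Photoreceptors signal through cyclic GMP, which holds open the cation channel of the outer segment. Light activates a phosphodiesterase that destroys cyclic GMP, the channel closes and calcium falls. The membrane cyclases GC-E (Gucy2e) and GC-F (Gucy2f) then make cyclic GMP anew from GTP when the activating proteins GCAP1 (Guca1a) and GCAP2 (Guca1b) have shed their calcium. RD3 binds the cyclases, holds them inactive and is needed for their transport to the outer segment. Recoverin (Rcvrn) belongs to the same family of calcium sensors, but it acts on the pigment kinase, which it holds back while calcium is high, and it is also made by some bipolar cells. In the rd1 retina the rod phosphodiesterase is defective, rods die early and cones lose their outer segments afterwards.

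The promoter windows of the genes are shown because 3 of the 4 that are listed share a short word. RefSeq promoter windows (GRCm38.p6) were matched by symbol for Guca1a, Gucy2e, Gucy2f and Rd3, and not for Guca1b and Rcvrn. The 250 bases before the listed start were searched on both strands for TAATCC, whose other strand reads GGATTA, the core of the sites bound by the photoreceptor homeodomain factor CRX. The windows below run 5′ to 3′ toward the gene, all 3 genes lie on the minus strand, and capitals mark the matches.
Guca1a (chr17:47400607-47400856): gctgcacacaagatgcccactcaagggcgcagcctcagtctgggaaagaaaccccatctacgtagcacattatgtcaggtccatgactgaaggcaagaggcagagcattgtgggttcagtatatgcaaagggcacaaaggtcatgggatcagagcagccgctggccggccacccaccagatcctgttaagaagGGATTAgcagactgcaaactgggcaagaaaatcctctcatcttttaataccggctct
Gucy2e (chr11:69237023-69237272): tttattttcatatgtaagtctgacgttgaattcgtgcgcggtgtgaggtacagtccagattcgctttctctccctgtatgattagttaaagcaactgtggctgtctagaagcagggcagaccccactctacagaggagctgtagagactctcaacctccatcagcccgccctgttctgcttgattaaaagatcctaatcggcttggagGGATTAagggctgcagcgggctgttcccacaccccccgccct
Gucy2f (chrX:142196937-142197186): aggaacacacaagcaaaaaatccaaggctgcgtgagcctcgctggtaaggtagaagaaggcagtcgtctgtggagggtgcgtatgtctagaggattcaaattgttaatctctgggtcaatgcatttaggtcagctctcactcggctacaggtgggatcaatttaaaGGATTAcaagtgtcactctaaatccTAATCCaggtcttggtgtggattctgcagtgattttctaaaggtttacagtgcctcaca
The match began 57 bases before the start in Guca1a and 42 bases before it in Gucy2e. Gucy2f held 2 matches, on opposite strands, at 84 and 59 bases before the start. Both windows of Rd3 held 0. Among all listed genes, 2054 of 32851 windows (6.25%) held the word. A match describes the letters of the window and is no evidence of binding. All the windows lie inside the annotated spans of their genes, which for Guca1a is chromosome 17 from 47394557 to 47413514.

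Levels are log2 of the deposited intensity. The median over all probes was 2.72 to 2.83 on every array, while the 95th percentile of the linear intensity lay between 115 and 135 for EGFP and between 173 and 186 for eNpHR-EYFP. The arrays differed in their content of cone transcripts. The cone markers were 10 genes: Arr3, Opn1sw, Opn1mw, Gnat2, Gngt2, Pde6c, Pde6h, Cnga3, Cngb3 and Gnb3. Their mean level ranged from 4.72 to 7.59 at 110 days, from 5.74 to 6.78 at 220 days and from 6.88 to 8.54 with eNpHR-EYFP. Replicates 1 and 4 at 110 days were the lowest, at 4.72 and 5.06. In bulk sorts fewer cones and less RNA per cone cannot be told apart. Arr3, cone arrestin, whose promoter drove the reporter, stood at 9.41 to 10.85 on the eNpHR-EYFP arrays, against 4.59 to 9.64 on the EGFP arrays. Not all cone markers were bright: Opn1sw stood at 7.36 to 9.60 with eNpHR-EYFP, but Cnga3 at 2.23 to 2.85, near or below the median probe.

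Of the 2 cyclase genes, Gucy2e lay around the level of the median probe in every group and Gucy2f below it. Gucy2e stood at 2.87, 2.66, 2.58 and 2.87 on the 4 arrays at 110 days, at 2.68, 2.56, 3.12 and 2.51 at 220 days, and at 2.56, 2.85, 2.61 and 3.09 with eNpHR-EYFP. The 3 groups overlapped fully, with means of 2.74 ± 0.15, 2.72 ± 0.28 and 2.78 ± 0.24 (SD, n = 4 each). Gucy2f was lower, at 2.07 to 2.23 at 110 days, 1.93 to 2.17 at 220 days and 1.93 to 2.07 with eNpHR-EYFP, below the median probe of each array. No background value was used here, so whether these probes stand above background is unknown, and a change in a dim gene would be understated.

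Neither cyclase differed between groups beyond the spread of the arrays. For Gucy2e the eNpHR-EYFP arrays differed from the mean of both EGFP ages by 0.05 ± 0.14 on the log2 scale (SE, 95% interval -0.25 to 0.34, adjusted p = 0.841 by limma). For Gucy2f the difference was -0.11 ± 0.07 (-0.27 to 0.05, adjusted p = 0.295). The ages differed by -0.03 ± 0.16 for Gucy2e (-0.37 to 0.32) and by -0.12 ± 0.08 for Gucy2f (-0.30 to 0.07). Gucy2e changed sign between alternatives of the fit, and its mean order over the groups has no meaning beyond the spread.

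**Figure D1:**
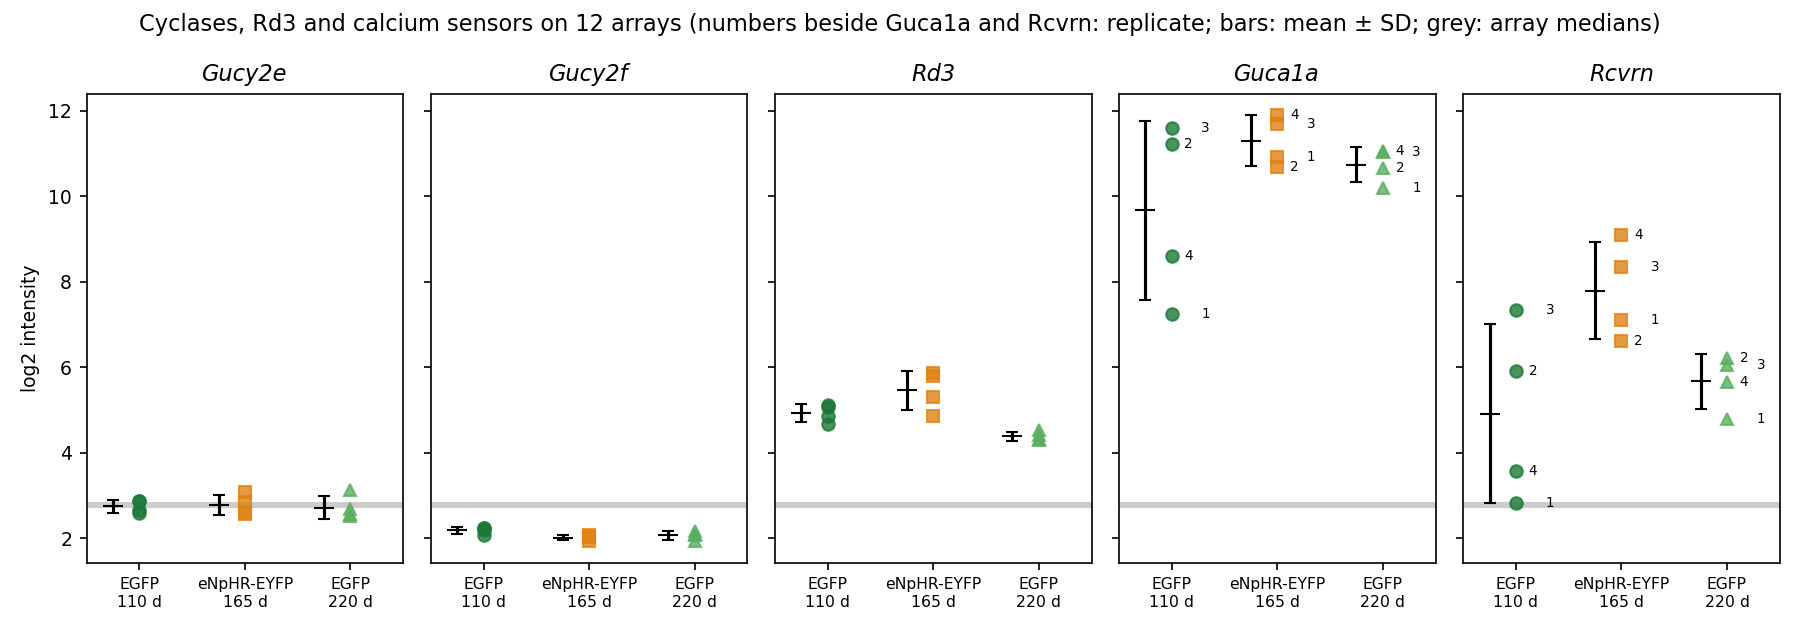
The log2 intensity (y axis) of each gene is plotted for every array, with groups in order of age and black bars giving mean ± SD of 4 arrays. Gucy2e scatters around the grey band of array medians (2.72 to 2.83), Gucy2f lies below it, Rd3 is lowest at 220 days, and replicates 1 and 4 at 110 days stand apart in Guca1a and Rcvrn.

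Rd3, the inhibitor and escort of the cyclases, had the most even levels within the EGFP groups of the 3 genes above the median probe. It stood at 4.67, 5.12, 5.08 and 4.85 at 110 days, at 4.30, 4.31, 4.41 and 4.53 at 220 days, and at 5.30, 4.87, 5.80 and 5.86 with eNpHR-EYFP. All 4 arrays at 220 days lay below all arrays of both other groups. The order of the means was eNpHR-EYFP at 5.46 ± 0.47, younger EGFP cones at 4.93 ± 0.21 and older EGFP cones at 4.39 ± 0.11 (SD, n = 4 each). The upper 2 groups in that order overlapped.

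Rd3 was higher with eNpHR-EYFP than in the older EGFP cones. That difference was 1.07 ± 0.20, or 2.10-fold (SE, 95% interval 0.64 to 1.503, adjusted p = 0.00302 by limma with Benjamini-Hochberg adjustment over 34615 probes). It passed under all 26 alternatives tried, with adjusted p from 0.000636 to 0.0190. Against the younger EGFP cones the difference was 0.53 ± 0.20 (adjusted p = 0.0771), which passed in 1 of 26 alternatives, without eNpHR-EYFP replicate 2 (0.72, adjusted p = 0.00938). Against the mean of both ages Rd3 was 1.74-fold higher, by 0.80 ± 0.17 (0.42 to 1.17, adjusted p = 0.00494), and passed in 12 of 12 fits that left out 1 array. This last call was lost after quantile normalization (0.48, adjusted p = 0.0606) and with the cone marker mean as a covariate (0.46 ± 0.16, adjusted p = 0.0711). It held without replicates 1 and 4 at 110 days (0.71 ± 0.19, adjusted p = 0.0225).

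Between the ages Rd3 differed by -0.54 ± 0.20 (95% interval -0.98 to -0.11), with an unadjusted p of 0.0185 and an adjusted p of 0.690 by limma, so the lower level at 220 days did not pass. The cone marker mean averaged 6.12 at 110 days and 6.46 at 220 days, but the first average rests on the low replicates 1 and 4. Without them the median age difference of the cone markers was -1.01, against 0.46 with all arrays, and the difference in Rd3 was -0.71 (adjusted p = 0.574 by limma). Those arrays were left out for being lowest in the cone markers, so the choice itself lowers the cone marker value. It says nothing about a link to Rd3. With the cone marker mean as a covariate the difference in Rd3 was -0.62 ± 0.15 (adjusted p = 0.359). In the same direction 308 of 19902 genes (1.55%) had all 220-day arrays below all 110-day arrays.

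Guca1a, which encodes the activator GCAP1, was bright and varied widely at 110 days. Its levels there were 7.25, 11.22, 11.61 and 8.62, a linear intensity of 152 to 3128. At 220 days they were 10.19, 10.66, 11.04 and 11.06, and with eNpHR-EYFP 10.92, 10.68, 11.70 and 11.91. Replicates 1 and 4 at 110 days were below every other array. Replicates 2 and 3 at 110 days were above all 220-day arrays, and the eNpHR-EYFP arrays overlapped with both EGFP groups. The means were 11.30 ± 0.60 with eNpHR-EYFP, 10.74 ± 0.41 for EGFP 220-day and 9.67 ± 2.09 for EGFP 110-day arrays (SD, n = 4 each), and no neighbours in this order differed beyond their spread.

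No comparison of Guca1a passed. The eNpHR-EYFP arrays differed from the mean of both EGFP ages by 1.10 ± 0.69 (95% interval -0.41 to 2.61, adjusted p = 0.270 by limma), from 110 days by 1.63 ± 0.80 (adjusted p = 0.168) and from 220 days by 0.57 ± 0.80 (adjusted p = 0.670). The ages differed by 1.06 ± 0.80 (-0.68 to 2.81, adjusted p = 0.849). These intervals leave room for several-fold differences. The comparison with 110 days passed without EGFP 110-day replicate 3 (2.27, adjusted p = 0.0496). Without replicates 1 and 4 at 110 days the difference between ages turned to -0.68 ± 0.37 and that against both ages shrank to 0.23 ± 0.28. The fit with the cone marker mean as a covariate assumes a straight line. In that fit Guca1a was lower with eNpHR-EYFP than at 220 days by -1.04 ± 0.29 (adjusted p = 0.0333), the opposite direction. The cone marker means of these groups did not overlap (6.88 to 8.54 against 5.74 to 6.78). The adjusted value therefore rests on the assumed line and not on arrays of like cone content.

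Rcvrn, the gene of recoverin, followed the same arrays as Guca1a and differed most between the constructs. It stood at 2.83, 5.91, 7.35 and 3.57 at 110 days, at 4.78, 6.21, 6.06 and 5.65 at 220 days, and at 7.12, 6.62, 8.35 and 9.10 with eNpHR-EYFP. On replicate 1 at 110 days it was at the median probe. All eNpHR-EYFP arrays lay above all 220-day arrays, while replicate 3 at 110 days lay above 2 of them. The means were 7.79 ± 1.13 with eNpHR-EYFP, 5.68 ± 0.64 for the older and 4.92 ± 2.09 for the younger EGFP cones (SD, n = 4 each), of which the EGFP ages did not differ (0.76 ± 0.88, 95% interval -1.17 to 2.69, adjusted p = 0.916 by limma).

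Against the mean of both EGFP ages Rcvrn was 5.65-fold higher with eNpHR-EYFP, by 2.499 ± 0.77 (95% interval 0.82 to 4.17, adjusted p = 0.0301 by limma). Against 110 days the difference was 2.88 ± 0.88, or 7.35-fold (adjusted p = 0.0350), and against 220 days 2.12 ± 0.88 (0.19 to 4.05, adjusted p = 0.114). The first call was lost without EGFP 110-day replicate 4 (2.28, adjusted p = 0.0506), EGFP 220-day replicate 1 (2.35, 0.0527), eNpHR-EYFP replicate 3 (2.31, 0.0838) or replicate 4 (2.07, 0.0899). The call against 110 days was lost without EGFP 110-day replicate 1 (2.18, adjusted p = 0.0898) or replicate 4 (2.43, 0.0953) and without eNpHR-EYFP replicate 3 (2.69, 0.0828) or replicate 4 (2.44, 0.0827). Both were lost after quantile normalization, at 2.05 (adjusted p = 0.0799) and 2.46 (adjusted p = 0.0795). With the cone marker mean as a covariate the difference against both ages was 0.43 ± 0.21 (adjusted p = 0.192), against 2.499 without it. Without replicates 1 and 4 at 110 days it was 1.64 ± 0.53 (adjusted p = 0.04997), the difference against 110 days was 1.16 ± 0.70 (adjusted p = 0.304), that against 220 days passed (2.12, adjusted p = 0.0268) and that between ages turned to -0.96 ± 0.70.

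Markers of bipolar cells, some of which also make recoverin, were measured beside it. Of 12 listed bipolar markers 11 were measured, and their mean level was 4.77 to 5.27 at 110 days, 5.11 to 5.69 at 220 days and 4.81 to 5.45 with eNpHR-EYFP. Between the constructs 1 of the 11 rose and 2 fell, beside 23% of all genes called higher and 10.1% lower. The ranges of the 3 groups overlapped. The part of bipolar cells in the level of Rcvrn was not tested.

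Counted over the group, 2 of the 5 measured genes, Rcvrn and Rd3, were called higher with eNpHR-EYFP than in both EGFP ages, and 0 were called lower. Of all 19902 genes 23% were called higher and 10.1% lower in that comparison, and the median log2 difference was 0.80 over the 5 genes and 0.07 over all genes. The median of the 5 genes was 0.48 after quantile normalization, 0.10 with the cone marker mean as a covariate and 0.23 without replicates 1 and 4 at 110 days. After quantile normalization, which makes the array distributions equal, 3211 genes were called higher and 2466 lower, or 56.6% of calls higher in place of 69.5%. Against 110 days 1 of 5 genes, Rcvrn, was called higher and 0 lower, where 19.9% of all genes were called higher and 8.11% lower. Against 220 days 1 of 5, Rd3, was called higher and 0 lower, where 17.8% of all genes were called higher and 7.4% lower. Both comparisons share the eNpHR-EYFP arrays. All eNpHR-EYFP arrays lay above all 220-day arrays in Rd3 and Rcvrn, as in 19.8% of all genes. Between the EGFP ages 0 of 5 genes were called, and 0% of all genes. By limma 1 of the 5 genes (Rd3) and 2331 probes (6.73%) had an unadjusted p under 0.05.

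**Figure D2:**
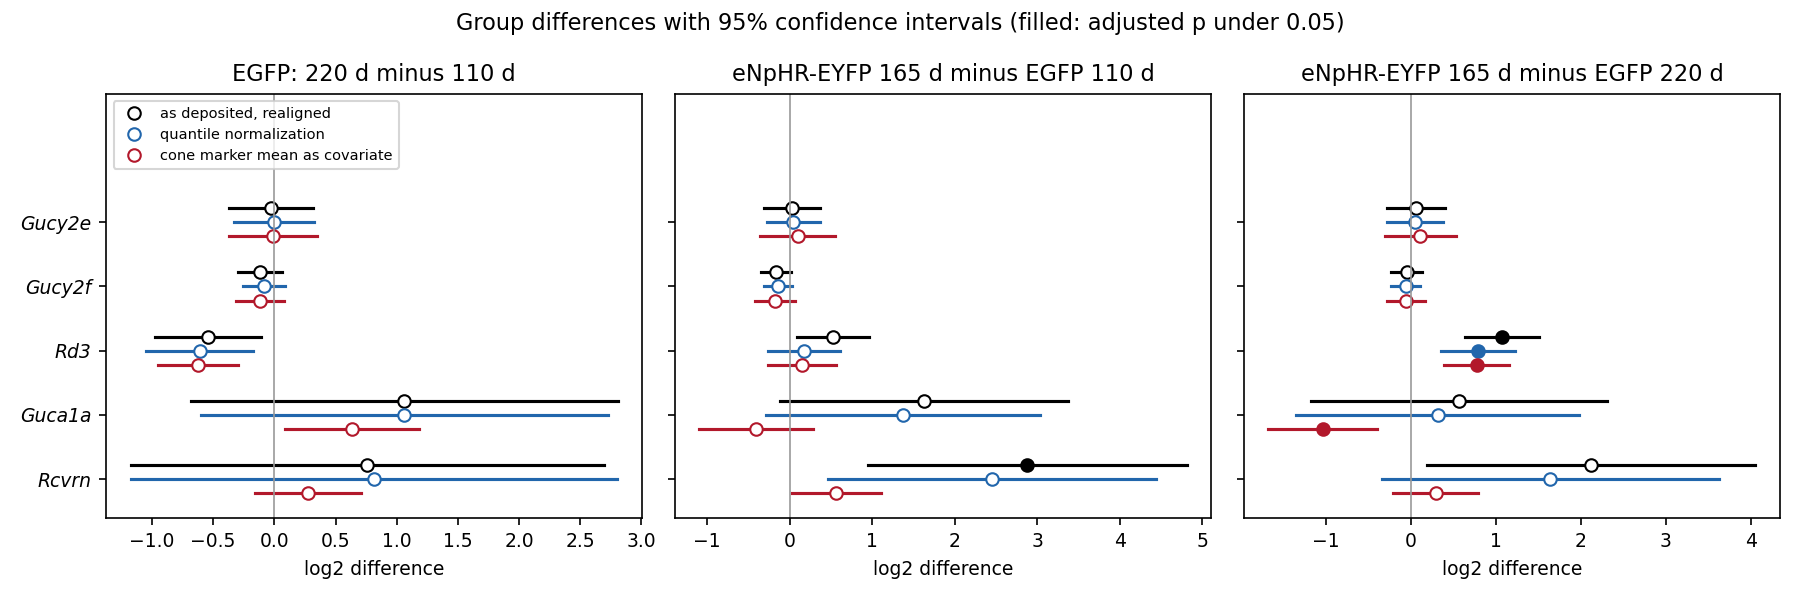
Log2 differences (x axis) with 95% confidence intervals are drawn for each gene under 3 settings, with filled points where the adjusted p is under 0.05. Rd3 against EGFP at 220 days is filled in all 3 settings (1.07 as deposited), while Rcvrn against EGFP at 110 days is filled only as deposited (2.88) and Guca1a crosses to the other side of 0 with the covariate in both comparisons with eNpHR-EYFP.

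The levels of Guca1a and Rcvrn ran with the cone content of the sorts. Over the 8 EGFP arrays, which share construct and number of cells, the cone marker mean and Guca1a had a Pearson r of 0.955 (exact permutation p = 4.96e-05, adjusted over 15 pairs 0.000744) and a Spearman rho of 0.976 (exact permutation, adjusted p = 0.00595). For Rcvrn r was 0.974 (exact permutation, adjusted p = 0.00273) and rho 0.833 (adjusted p = 0.115 by the exact permutation test). Guca1a and Rcvrn ran together with r of 0.951 (exact permutation, adjusted p = 0.00273) and rho of 0.786 (adjusted p = 0.140 by the exact permutation test). Without the 2 arrays farthest from the median, replicates 1 and 4 at 110 days, r over the 6 arrays left was 0.982, 0.90 and 0.833. All these values come from the same 8 arrays, so the pairs are not independent. The correlations with single cone genes over these arrays were 0.995 with Opn1sw and 0.97 with Arr3 for Guca1a, and 0.935 and 0.977 for Rcvrn.

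Over all 8 EGFP arrays no relation of Rd3 to the cone markers passed. Its r with the cone marker mean was 0.253 (exact permutation, adjusted p = 0.798) and its rho 0.381, and with Guca1a r was 0.0725. Without replicates 1 and 4 at 110 days these r values were 0.810 and 0.807 over 6 arrays. The r over all EGFP arrays mixes both ages, whose Rd3 levels did not overlap. Replicates 1 and 4 at 110 days, lowest in cone markers, had Rd3 at 4.67 and 4.85, above all 220-day arrays. With each group's mean subtracted, over all 12 arrays, r was 0.748 with the cone marker mean (permutation, adjusted p = 0.0076), 0.638 with Guca1a and 0.717 with Rcvrn. The same values for Guca1a and Rcvrn with the cone marker mean were 0.958 and 0.981. Gucy2e and Gucy2f had r of -0.385 and -0.0896 with the cone marker mean over the EGFP arrays, neither past the threshold. Without replicates 1 and 4 at 110 days the r of Gucy2f was 0.871 and that of Gucy2e -0.0738. Without EGFP 220-day replicate 3, where Gucy2e had its highest level, its r was -0.850 (exact permutation, adjusted p = 0.0437 over the same 15 pairs).

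**Figure D3:**
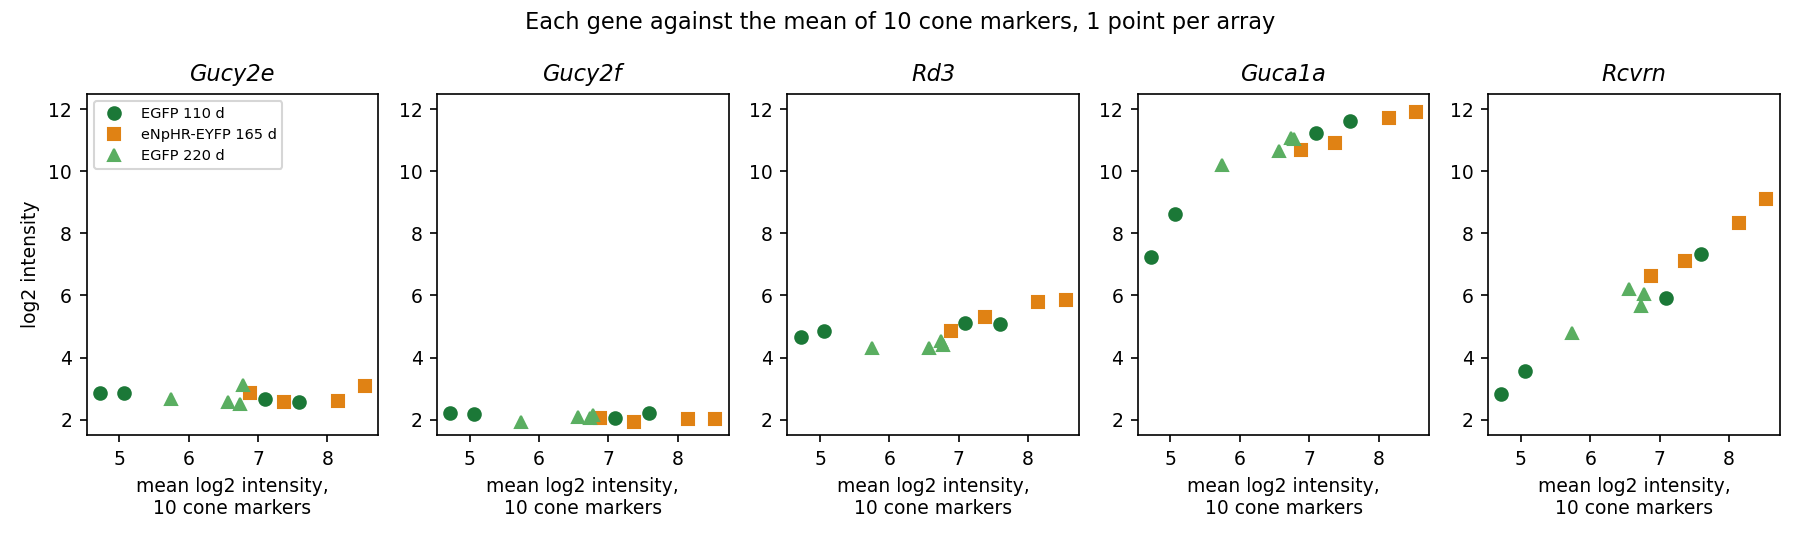
The log2 intensity of each gene (y axis) is set against the mean log2 intensity of 10 cone markers (x axis), 1 point per array. Guca1a and Rcvrn climb with cone content in all 3 groups (r of 0.955 and 0.974 over the EGFP arrays), the 220-day triangles of Rd3 lie below its other points, and Gucy2e and Gucy2f stay flat near 2 to 3.

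The genes most like each of these in profile were sought among 16813 protein-coding genes over the 8 EGFP arrays, as a description. Nearest to Guca1a were Opn1sw, the short-wave cone opsin (r = 0.995), Sag, the arrestin of rods that cones also make (0.994), and Pde6h, the inhibitory subunit of the cone phosphodiesterase (0.976). Nearest to Rcvrn were Pde6c, the catalytic subunit of the cone phosphodiesterase (0.990), Apela, a peptide hormone gene (0.988), and Fbxl7, which encodes an F-box protein (0.985). All 6 of these spanned at least as wide a range at 110 days as at 220 days, as with Sag at 5.30 to 9.70 against 7.85 to 8.95.

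The genes nearest to Rd3 were Twist1 (0.968), Lfng (0.953) and Sh2d4a (0.951), all dim, as Lfng at 2.04 to 2.35 over the EGFP arrays, and none of them on the lists of photoreceptor genes. For the cyclases the nearest genes were Lrp2bp (0.962), Zmym2 (0.948) and Psapl1 (0.943) for Gucy2e and Slc22a18 (0.991), Cd55b (0.959) and Stra6l (0.955) for Gucy2f. The best of so many genes is high by choice, and 1% of all genes had an r above 0.781 with Gucy2e, 0.81 with Rd3 and 0.851 with Rcvrn.

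The rest of the cyclic GMP pathway was read from lists, with 59 genes measured in 6 lists beside the 5 above. Between the ages 0 of the 59 were called by limma. The counts that follow stand beside 23% of all genes called higher and 10.1% called lower, with a median of 0.07, and call nothing particular to a list. With the cone marker mean as a covariate 3441 of 19902 genes were called higher and 1220 lower, and after quantile normalization 3211 and 2466. With eNpHR-EYFP against both EGFP ages the enzymes that supply GTP, the substrate of the cyclases, had 5 of 8 genes higher and 0 lower, with a median of 0.68. Hprt, the salvage enzyme for guanine, rose by 1.23 ± 0.08 (adjusted p = 3.38e-06 by limma) and Guk1, guanylate kinase, by 1.36 ± 0.30 (adjusted p = 0.00583). Nme2, a nucleoside diphosphate kinase, rose by 1.01 ± 0.18, Impdh1, the photoreceptor form of the rate-limiting enzyme of GTP synthesis, by 0.67 ± 0.16, and Prps1 by 0.69 ± 0.23. Prps1 stood at 6.09 to 6.585 with eNpHR-EYFP, overlapping the 220-day arrays (5.87 to 6.46) and above the 110-day arrays (4.57 to 5.84). Hprt stood at 6.68 to 6.99 on all EGFP arrays and at 8.02 to 8.17 on all eNpHR-EYFP arrays, with no overlap. With the cone marker mean as a covariate Hprt stood at 1.29, Nme2 at 0.98, Guk1 at 0.60 and Impdh1 at 0.35, of which Impdh1 did not pass (adjusted p = 0.124). After quantile normalization Hprt stood at 0.72, Nme2 at 0.65 and Guk1 at 0.91, and all 3 passed. The list had 4 genes higher and 1 lower after quantile normalization (median 0.45), and 3 higher and 0 lower with the covariate (median 0.48).

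The list of chaperones and other proteins that serve the delivery and build of the outer segment, the setting in which RD3 escorts the cyclases, had 3 of 7 genes higher and 1 lower, and their median difference was 0.85. Adjusting for the cone marker mean left 1 higher and 0 lower (median 8.56e-05), and quantile normalization left 1 higher and 1 lower (median 0.45). Arl3, the small GTPase that releases lipid-anchored cargo, rose by 1.11 ± 0.23 (adjusted p = 0.00433 by limma), Tulp1 by 1.28 ± 0.31 and Unc119 by 0.85 ± 0.22. Rp2, which acts on ARL3, fell by 0.29 (adjusted p = 0.0254) but not without eNpHR-EYFP replicate 1 (-0.27, 0.0683) or replicate 3 (-0.22, 0.0929). Aipl1, the chaperone of the phosphodiesterase, was at 1.24 ± 0.45 (adjusted p = 0.0629). Quantile normalization ended the calls of Tulp1 (adjusted p = 0.0503) and Unc119 (adjusted p = 0.135). The covariate ended those of Tulp1 (0.51, adjusted p = 0.0942), Unc119 (0.37, 0.166) and Rp2 (-0.31, 0.0811), and Arl3 stood at 0.55 with it (adjusted p = 0.0298).

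Genes that destroy cyclic GMP or respond to it had 3 of 13 higher and 2 lower, with a median of 0.13, so the share called higher was that of all genes (23%). The median was -0.06 with the cone marker mean as a covariate, and Pde6c, Pde6h, Cnga3 and Cngb3 of this list are part of that mean. Pde6d, the prenyl-binding subunit that shuttles the phosphodiesterase, rose by 1.22 ± 0.28 (adjusted p = 0.00669 by limma), though not after quantile normalization (0.70, adjusted p = 0.0660), and Pde6g, the rod inhibitory subunit, by 1.17 ± 0.39 (adjusted p = 0.0429). Pde6c rose by 2.02 ± 0.66 (adjusted p = 0.0409) but passed in 3 of 12 fits without 1 array, those without EGFP 110-day replicate 2 or 3 or eNpHR-EYFP replicate 2, and reached an adjusted p of 0.112 in the others. It was not called after quantile normalization (1.58, adjusted p = 0.117) or with the covariate (0.21, adjusted p = 0.323). Pde6c is itself among the cone markers averaged into that covariate, so its fall there was partly fixed in advance. Cngb1, the rod channel subunit, fell by 0.48 (adjusted p = 0.0175), but not without eNpHR-EYFP replicate 1 (-0.42, adjusted p = 0.0601). Slc24a2, among the sodium-calcium exchangers of the list, fell by 0.33 (adjusted p = 0.0302). Its call was lost without EGFP 220-day replicate 2 or 3 or eNpHR-EYFP replicate 1, 2 or 3 (adjusted p up to 0.0870). Slc24a2 was dim, at 1.93 to 2.61 over all arrays, below the median probe. With the covariate neither Cngb1 (adjusted p = 0.118) nor Slc24a2 (adjusted p = 0.0577) passed. The pigment, transducin, kinase and arrestin list had 5 of 10 higher and 0 lower, with a median of 1.23. That median was 0.89 after quantile normalization, 0.13 with the covariate and 0.71 without replicates 1 and 4 at 110 days. Opn1sw, Opn1mw, Gnat2, Gnb3, Gngt2 and Arr3 of this list are cone markers. The falls with the covariate and without the arrays lowest in those markers were therefore partly fixed in advance. Also on this list, Grk1, the kinase that recoverin holds back, rose by 0.78 ± 0.09 (adjusted p = 0.000118) from a dim 2.38 to 2.89 with EGFP to 3.42 to 3.57.

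Among 9 other guanylate cyclases, relatives of the retinal ones, 4 rose, 1 fell and the median was 0.31. Npr1, a natriuretic peptide receptor, rose by 0.48 ± 0.10 (adjusted p = 0.00367 by limma), Gucy2g by 0.43 ± 0.08, Gucy1b2 by 0.38 ± 0.11 and Gucy2d, the olfactory cyclase, by 0.31 ± 0.10. Gucy1a2, a subunit of the soluble cyclase, fell by 0.53 (adjusted p = 0.0147). Gucy1b2 was not called without eNpHR-EYFP replicate 2 (0.37, adjusted p = 0.0591) or replicate 4 (0.33, 0.0664). Once the cone marker mean was a covariate, Gucy1a2 (adjusted p = 0.138) and Gucy1b2 (adjusted p = 0.168) were not called. The mean level of this list was 2.54 to 2.92 over all arrays, around the level of the median probe, while the soluble cyclase subunit Gucy1a1 reached 3.10 to 4.74. Gucy2g, at 1.93 to 2.61, and Gucy1b2, at 1.96 to 2.79, were dim and below the median probe of each array. Gucy1a2 was dim as well, at 1.89 to 3.02. Gucy1a1, named after its values were seen, was lower with eNpHR-EYFP than at 220 days by -0.80 ± 0.22 (adjusted p = 0.0241 by limma).

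Of 12 other neuronal calcium sensors and calmodulins 4 rose and 1 fell, and the median was 0.31. Hpcal1 rose by 1.03 ± 0.15 (adjusted p = 0.000383 by limma), Kcnip1, a potassium channel partner, by 1.47 ± 0.43, Calm3 by 0.82 ± 0.24 and Ncs1 by 0.27 ± 0.07. Ncs1 was dim, at 1.77 to 2.26 over all arrays, below the median probe. Hpcal4 fell by 0.45 (adjusted p = 0.00300). Kcnip1 was not called without eNpHR-EYFP replicate 1 (1.16, adjusted p = 0.0820) or replicate 2 (1.30, 0.0733). With the cone marker mean as a covariate Hpcal1 stood at 0.75 (adjusted p = 0.00471), while Rcvrn, of the same family, was at 0.43 (adjusted p = 0.192).

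**Figure D4:**
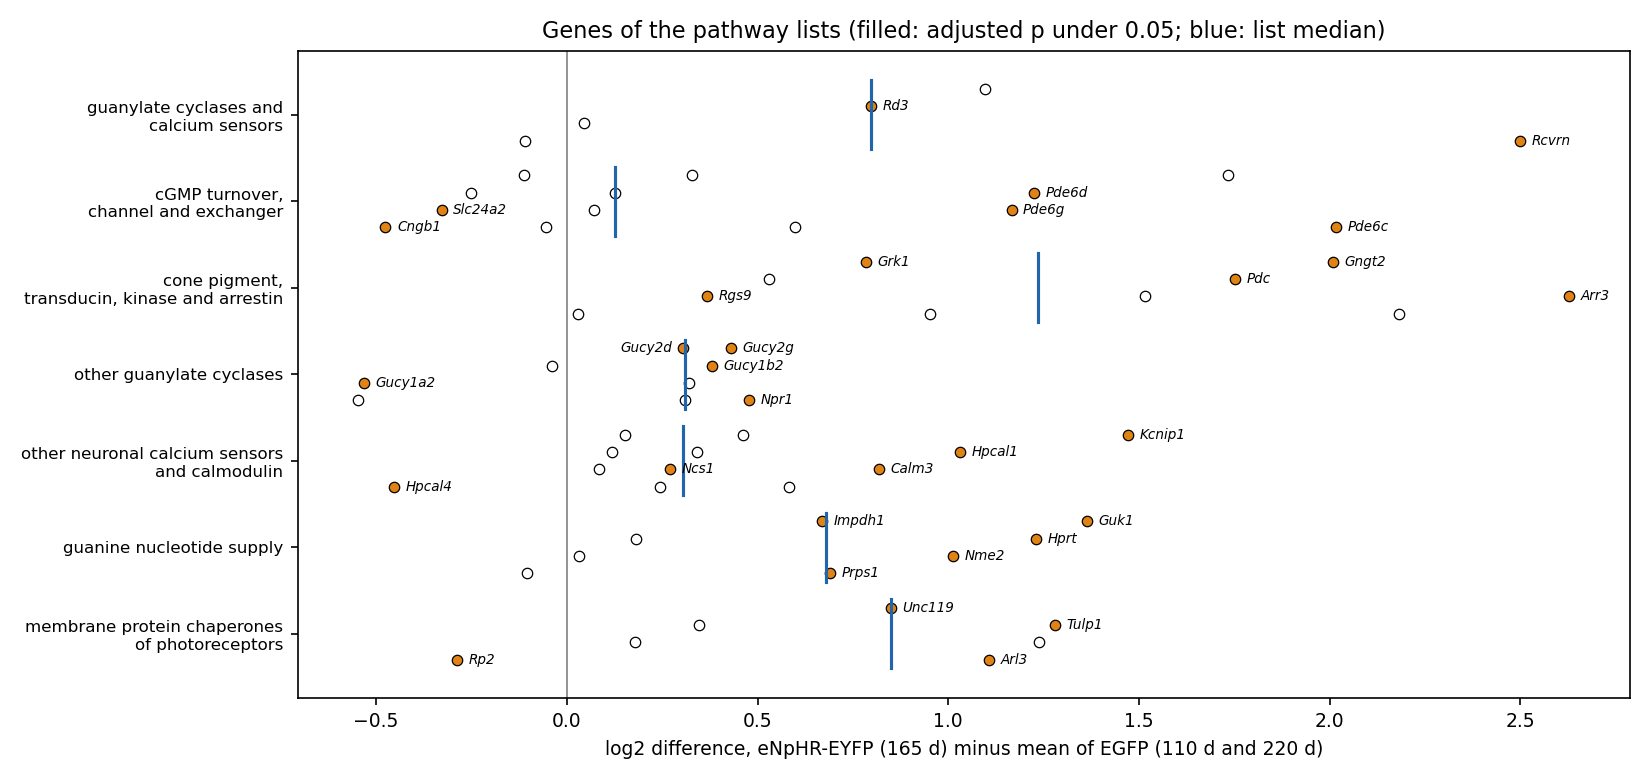
Each point is 1 gene of a list, placed by its log2 difference between eNpHR-EYFP and the mean of both EGFP ages (x axis), filled and named where the adjusted p is under 0.05, with a blue line at the list median. Rcvrn (2.499) lies far to the right in the top row, the GTP supply list has 5 of 8 points filled on the right, and other cyclases stay between about -0.55 and 0.48.

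Markers of other cells of the retina were set beside these differences. Between the constructs the rod list had 3 of 10 measured genes higher and 1 lower, amacrine cells 4 of 12 higher, Müller glia 2 of 12 higher, pigment epithelium 3 of 10 higher, and microglia 4 of 10 higher and 1 lower, beside 23% of all genes higher and 10.1% lower. With the cone marker mean as a covariate 8 of 12 Müller glia markers were higher (median 0.90 against 0.44) and 7 of 12 amacrine markers (median 0.87 against 0.51). In that fit 3441 of all 19902 genes were called higher and 1220 lower, with a median of 0.08. The microglia list mean was 2.78 to 2.87 on the eNpHR-EYFP arrays, above all EGFP arrays at 2.54 to 2.70, and that of pigment epithelium was 2.71 to 3.07 over all arrays. Amacrine markers averaged 3.58 to 4.15 at 110 days, 4.002 to 4.70 at 220 days and 3.95 to 4.72 with eNpHR-EYFP, rod markers 4.02 to 4.81, 4.27 to 4.61 and 4.62 to 5.13, and Müller glia markers 4.71 to 5.86, 5.49 to 5.76 and 5.35 to 6.69. The part of these cells in the levels of the cyclases and sensors was not tested.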

How the data were processed

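RNA of sorted cones was extracted with the PicoPure kit, labelled for Affymetrix whole-transcript arrays and read on 1 array for each sample, per the labels' protocols. For labelling, 8 ug of total RNA is named there, although 300 or 500 cells were sorted; amplification is not stated there. The deposited values are linear intensities, 1.7 to 10242.1, made by the authors with RMA and affy, per the submitters' processing notes, with no version. RMA removes background, equalises arrays and combines probes; the set of arrays it was run on is not stated.

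The 8 EGFP columns held 31 values fewer than the eNpHR-EYFP columns (34729 against 34760) and stood beside wrong probes in the lower part of the table. They were realigned to the mean of the eNpHR-EYFP arrays with a forward-backward hidden Markov model (t distribution with 3 degrees of freedom, scale 0.25 in log2, probability 0.001 per lost line, posterior at least 0.999). It moved 21031 lines by 3 to 31, kept 13584 in place and left out 114; the median correlation of EGFP with eNpHR-EYFP arrays rose from 0.421 to 0.944, against 0.934 over lines in place. Gucy2e, Rcvrn and Rd3 had stood in place, while Guca1a moved by 6 lines and Gucy2f by 25. The alignment relies on the likeness of both sets of arrays. On simulated losses, tried within the eNpHR-EYFP arrays alone, 100% of kept lines were right. That trial did not cross constructs, so it cannot show how accurate the alignment of the EGFP columns was.

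Intensities were taken to log2 with no pseudocount and no filter. Comparisons used limma 3.58.1 (R 4.3.3), in 1 model of 3 groups over 12 arrays, with Benjamini-Hochberg adjustment over 34615 probes and a threshold of 0.05. The number of arrays, 4 per group, limits precision. Probes were named from the platform annotation: 21640 name 1 gene, 1321 several and 11799 none, of which the last 2 kinds name no gene here, and 21553 of the first matched RefSeq. The build of the array is not stated, so coordinates are those of RefSeq on GRCm38.p6. Correlations used exact permutation of the pairings over the 8 EGFP arrays.

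Genes named are the members, the 3 genes most like each, and up to 4 genes per list with the smallest p between constructs. The 10 cone markers, Arr3, Opn1sw, Opn1mw and Gnat2 among them, are named too. Gucy2d, Calm3, Prps1, Aipl1 and Gucy1a1 were named after their values were seen. Members and lists were chosen with earlier results of these data known. Some listed genes are not reported here. Alternatives were a trended and robust prior, fits limited to the groups compared, quantile normalization, centring on the median, weighted arrays, a filter on dim probes, replicate numbers as blocks, other choices of probe and of realignment, lines in place alone, the cone marker mean as a covariate and each array left out. Leaving out the 2 arrays lowest in cone markers was added after seeing the data; it raises the EGFP level of cone genes by choice.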

Additional observations from a re-analysis of the deposited data

How the results depend on the processing

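Between the EGFP ages 0 of 5 genes and 0 of 59 pathway genes were called under every alternative tried. Between the constructs the 2 called genes became 0 after quantile normalization and 0 with the cone marker mean as a covariate, and 1 to 2 when 1 array was left out. Against 110 days the 1 called gene became 0 in the fit of the compared groups alone, after quantile normalization, on lines in place alone, with the covariate and without the 2 arrays lowest in cone markers, and 0 to 2 when 1 array was left out. Against 220 days the 1 called gene became 2 in the fit of the compared groups alone and without those 2 arrays (Rcvrn was added, adjusted p of 0.0282 and 0.0268 by limma), and 2 with the covariate, where Guca1a was added in the opposite direction (-1.04). The cause was not tested, except that on lines in place fewer genes were tested. There 9 pathway genes were called between the constructs in place of 29, with 19 under the covariate and 21 to 32 when 1 array was left out. Over all probes 9659 were called between the constructs, 6747 under the covariate and 8482 after quantile normalization. The share over all genes on lines in place or without 1 array is not given here. Guca1a and Gucy2f could not be fitted on lines in place. Of 15 correlations 3 passed over the EGFP arrays, 6 over all 12 arrays after subtracting group means, and 3 to 6 when 1 array was left out. Without the 2 arrays lowest in cone markers Rcvrn differed between the constructs by 1.64 (adjusted p = 0.04997) and Rd3 by 0.71 (adjusted p = 0.0225). Same-numbered arrays of different groups had correlations of -0.0387 to 0.143 in their deviations. The labels do not say whether the numbers pair arrays, and these values cannot exclude it. With the replicate number as a block 9258 probes were called between constructs in place of 9659. Rcvrn then had an adjusted p of 0.0229 and Rd3 of 0.00723 by limma. No call of the 5 genes changed with the block in any of the 4 comparisons. The dim levels of Gucy2e and Gucy2f limit what can be seen of the cyclases.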

Other observations

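Several genes that do not belong to the cyclic GMP pathway had profiles over the EGFP arrays close to that of Rcvrn. Apela ranged from 3.46 to 6.90 at 110 days, from 5.04 to 6.46 at 220 days and from 6.33 to 8.09 with eNpHR-EYFP, and over all 12 arrays its r with Rcvrn was 0.992. Fbxl7 ranged from 5.13 to 9.20, from 6.41 to 8.40 and from 6.804 to 9.59 in the same groups, with an r of 0.859 over all 12 arrays. These values are descriptions, since both genes were picked for their likeness to Rcvrn.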
